A study of Homo sapiens with 8 samples.

Results

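The genes described here encode acute-phase and plasma carrier proteins, the group of liver-made proteins that blood carries in bulk or that change in amount during inflammation. The 10 genes ALB, TTR, TF, HP, HPX, ORM1, SAA1, CRP, HAMP and LBP were listed by name, and 8 of them were read from the expression table by their gene symbol. SAA1 and CRP were not analysed here. The 8 genes were all among the 20153 that were tested, out of 25603 genes in the table. RNA was sequenced from HepG2 cells, an established human hepatocarcinoma line that is often used as a stand-in for hepatocytes, after 4 days with vehicle (0.2% DMSO, 4 libraries) or with the EZH1/EZH2 inhibitors UNC1999 and valemetostat tosylate at 1 µM each (called EZHi below, 4 libraries). Both inhibitors were given together, so their separate effects cannot be told apart. Both groups grew in medium with 10% serum, insulin at 20 mU/mL and dexamethasone at 50 nM, a synthetic glucocorticoid, and no cytokine is named for either group. These concentrations are those of the sample labels, and the methods of the study give others for DMSO and dexamethasone. In the Polycomb system, EZH1 and EZH2 place a silencing methyl mark on histone H3, and the question of the comparison was which genes change when that activity is blocked. The values are log2 normalized read counts corrected for gene length, as deposited, and 1 unit on this scale is a doubling. An estimated FPKM, which sets genes of different length on a common scale, was computed from them. Sequencing depth was not given with these values.

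Hepatocytes secrete most plasma proteins. ALB (albumin), TTR (transthyretin) and TF (transferrin) carry fatty acids, thyroid hormone and iron, and their output by the liver drops during inflammation, so they are called negative acute-phase proteins. HP (haptoglobin), HPX (hemopexin), ORM1 (alpha-1-acid glycoprotein), LBP (lipopolysaccharide-binding protein) and HAMP (hepcidin) rise in that response, which is driven by IL6 through STAT3 and by IL1 through NF-kappaB and C/EBP factors. HAMP is also under the control of BMP ligands and SMAD factors, which report body iron.

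At the level of RNA, ALB and TF were among the most abundant transcripts of these cells and LBP was a low one, between ranks 15539 and 18156 of 20153. In vehicle libraries the mean estimated FPKM ± SD (n = 4) was 11211 ± 4692 for ALB, 2651 ± 797 for TF, 277 ± 27.8 for ORM1 and 183 ± 75.2 for TTR. It was 71.2 ± 11.01 for HP, 12.0 ± 3.37 for HAMP, 7.37 ± 3.12 for HPX and 0.199 ± 0.0232 for LBP. The libraries of ORM1 and TTR overlapped, as did those of HAMP and HPX, and all other neighbours in this order were separate in every vehicle library. In EZHi libraries the order of the means was the same, ORM1 and TTR still overlapped (235 ± 27.9 and 227 ± 15.5), and HAMP (20.0 ± 1.30) was now above HPX (13.4 ± 4.33) with no overlap. ALB ranked 2 or 3 and TF between 10 and 22 by estimated FPKM among the genes tested in each library. ALB alone held 0.648% to 1.75% of all normalized reads.

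Of the 8 genes, HAMP and LBP were higher in EZHi and none was lower at a limma adjusted p under 0.05, beside 8.85% of all genes tested called higher and 4.27% called lower. HPX had the largest mean rise and a wide spread between libraries. ALB and ORM1 were lower in 4 of 4 pairs of libraries with the same replicate number, and TF and HP differed little in mean. A single direction in all 4 pairs was seen for 44.8% of all genes tested. Libraries with the same number deviated together from their group means, so the fit was repeated with the replicate number as a block. With that block 3 genes were called higher (HAMP, HPX and LBP) and 2 were called lower (ALB and ORM1), beside 14.9% and 15.1% of all genes tested. The median log2 difference of the 8 genes was 0.24, and that of all genes tested was -0.0077.

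**Figure D1:**
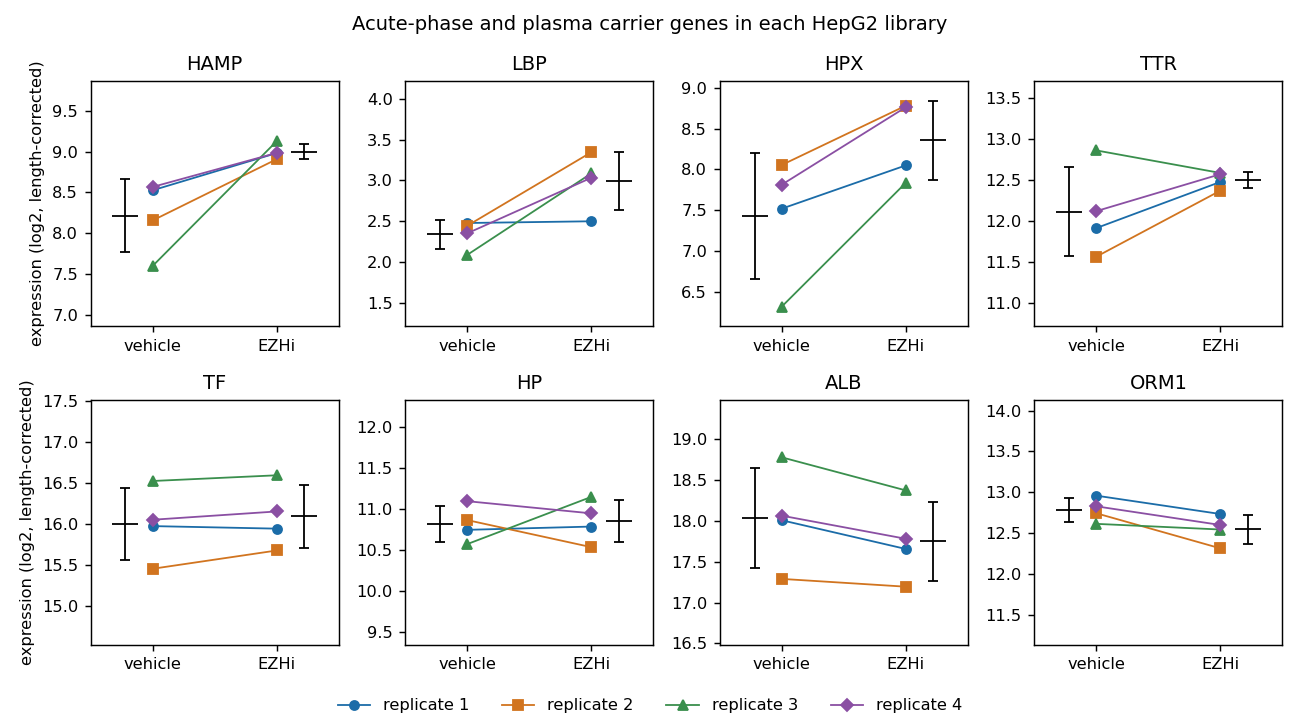
Deposited log2 expression of the 8 genes in each HepG2 library (vertical axis, log2 units, every panel spanning the same range), with lines joining the vehicle and EZHi libraries of the same replicate number and black marks for the group mean ± SD (n = 4). HAMP and LBP are the genes whose groups do not overlap, HPX rises along all 4 lines, and ALB and ORM1 go down along all 4.

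The promoters of the genes that moved in all 4 pairs are shown because the regulators described further on bind such sequences. Promoter entries of RefSeq (GRCh38.p14) were matched for 6 of the 10 genes, and TTR, HP, LBP and SAA1 were not matched. The 250 bases before the start are printed 5′ to 3′ on the strand of the gene for HAMP (chr19:35282278-35282527, plus strand), HPX (chr11:6440988-6441237, minus strand), ALB (chr4:73404037-73404286, plus strand) and ORM1 (chr9:114322848-114323097, plus strand). Capitals mark a match on either strand to TTCNNNGAA (STAT), TTGCNNAA (C/EBP) or GGCGCC (the BMP response element).
HAMP: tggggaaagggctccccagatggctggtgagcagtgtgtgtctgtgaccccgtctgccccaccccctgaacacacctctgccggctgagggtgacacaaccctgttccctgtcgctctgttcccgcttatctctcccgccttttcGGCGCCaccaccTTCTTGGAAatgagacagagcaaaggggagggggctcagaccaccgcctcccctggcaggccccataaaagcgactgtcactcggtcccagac
HPX: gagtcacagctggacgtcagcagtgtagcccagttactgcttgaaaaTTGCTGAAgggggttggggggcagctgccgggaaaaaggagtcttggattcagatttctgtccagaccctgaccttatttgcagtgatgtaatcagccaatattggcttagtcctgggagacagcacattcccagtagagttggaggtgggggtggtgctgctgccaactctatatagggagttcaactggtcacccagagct
ALB: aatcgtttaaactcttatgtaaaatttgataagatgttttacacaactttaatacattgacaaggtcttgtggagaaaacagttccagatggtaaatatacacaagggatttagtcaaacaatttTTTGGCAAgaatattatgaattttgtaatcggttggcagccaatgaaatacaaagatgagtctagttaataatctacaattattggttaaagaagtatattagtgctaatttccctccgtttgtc
ORM1: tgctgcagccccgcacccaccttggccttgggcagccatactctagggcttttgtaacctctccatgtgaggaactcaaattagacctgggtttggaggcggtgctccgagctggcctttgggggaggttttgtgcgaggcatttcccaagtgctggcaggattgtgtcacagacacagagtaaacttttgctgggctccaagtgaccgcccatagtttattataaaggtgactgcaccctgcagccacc
HAMP held a BMP response match at -105 to -100 and a STAT match at -93 to -85 from the start, next to each other and not overlapping. HPX held a C/EBP match at -203 to -196, ALB one on the other strand at -125 to -118, and no match to these letters lay in the ORM1 window. TF, whose windows are not printed, held BMP response matches too. They lay at -157 to -152 and -121 to -116 in the window at chr3:133661748-133661997. In the window at chr3:133746143-133746392 one lay at -15 to -10, with a C/EBP match at -98 to -91. TF had a log2 difference of 0.09 (limma adjusted p 0.864 without the block). No match lay in the CRP window. Among 35116 promoters of the same length, 16.4% held the BMP response letters, 6.57% the STAT letters and 9.05% the C/EBP letters. Letters for the transcription factor HNF1 were also searched for. As an exact match they were held by 0.823% of those promoters and by none of the windows named here. The ALB window held a stretch that differs from the HNF1 letters only at the last base. The lack of an exact match therefore does not show that a site for HNF1 is absent. CpG dinucleotides numbered 10 in HAMP, 5 in ORM1, 3 in ALB and 2 in HPX, below the median of 11. These matches describe the sequence, and binding was not measured here. Whether the matches relate to the changes in expression was not tested.

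HAMP (ENSG00000105697, chr19:35280716-35285143, plus strand) encodes hepcidin, the hormone that makes cells degrade the iron exporter ferroportin. Its log2 values were 8.53, 8.16, 7.60 and 8.57 in vehicle replicates 1 to 4, and 8.98, 8.91, 9.13 and 8.98 in EZHi replicates 1 to 4. Every EZHi library was above every vehicle library, as for 10.7% of all genes tested, and the EZHi libraries lay close together while vehicle replicate 3 was low. The means were 8.21 ± 0.45 and 9.001 ± 0.09 (SD, n = 4), a difference of 0.79 (SE 0.19) or 1.73-fold (95% interval 1.29 to 2.32), with a limma adjusted p of 0.0224. HAMP was higher in 4 of 4 pairs, by 0.46, 0.75, 1.53 and 0.42, where 44.8% of all genes tested kept 1 direction in all pairs. The exact two-sided permutation p over the 8 libraries was 0.0286, which is the smallest that 4 against 4 can give. Leaving out 1 library moved the difference between 0.58 and 0.91, and the call was lost without vehicle replicate 2 (adjusted p 0.0542) or EZHi replicates 1 (0.0549), 3 (0.0563) or 4 (0.0613). Without both libraries numbered 3, an alternative added after the data were seen, HAMP was higher by 0.54 with a limma adjusted p of 0.0205. In bulk libraries, a change in the share of cells that express a gene and a change in RNA per cell cannot be told apart.

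HPX (ENSG00000110169, chr11:6431049-6442617, minus strand) encodes hemopexin, which binds free heme and delivers it to hepatocytes. Its log2 values were 7.52, 8.05, 6.32 and 7.81 in vehicle replicates 1 to 4, and 8.05, 8.78, 7.84 and 8.76 in EZHi replicates 1 to 4. The groups overlapped, because vehicle replicate 2 was as high as the lower EZHi libraries, yet each EZHi library was above the vehicle library of its number, by 0.53, 0.73, 1.52 and 0.95. The means were 7.43 ± 0.77 and 8.36 ± 0.49 (SD, n = 4), a difference of 0.93 (SE 0.36) or 1.91-fold (95% interval 1.08 to 3.36). The limma adjusted p was 0.134, and it was 0.00119 with the replicate block (95% interval of the log2 difference 0.62 to 1.24). Without vehicle replicate 3, the lowest library, the difference was 0.56 with an adjusted p of 0.178, and without both libraries numbered 3 it was 0.73, with adjusted p-values of 0.0671 without and 0.00198 with the block.

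HP, whose product binds free hemoglobin, had log2 values of 10.75, 10.86, 10.57 and 11.10 in vehicle and 10.79, 10.53, 11.15 and 10.95 in EZHi, in the order of replicates 1 to 4. The groups overlapped through their whole range, and 2 pairs were higher and 2 lower. The difference was 0.03 (SE 0.14, 95% interval -0.29 to 0.36, limma adjusted p 0.916), so changes larger than that interval were not seen at this spread. The span of HP lies within that of the antisense gene TXNL4B, and reads were counted without regard to strand. Whether exons of these genes overlap was not examined. A part of its transcript (5.34% of its stretches of 150 bases, the read length) also occurs in the paralog HPR. HPR had a log2 difference of -0.15 (adjusted p 0.686).

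TF, the iron carrier of plasma, had log2 values of 15.97, 15.45, 16.53 and 16.05 in vehicle and 15.94, 15.68, 16.60 and 16.15 in EZHi. The libraries ranked alike by replicate number in both groups, with replicate 2 lowest and replicate 3 highest. The difference was 0.09 (SE 0.24, 95% interval -0.45 to 0.63, limma adjusted p 0.864), and the interval with the block was -0.05 to 0.24 (adjusted p 0.334). The TF locus overlaps SRPRB on the same strand.

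ALB (ENSG00000163631, chr4:73397114-73421482, plus strand) had log2 values of 18.01, 17.29, 18.78 and 18.06 in vehicle replicates 1 to 4, and 17.66, 17.20, 18.37 and 17.78 in EZHi replicates 1 to 4. The spread between replicates was larger than the shift between groups, and the groups overlapped, but the EZHi library was the lower one in every pair, by 0.35, 0.095, 0.41 and 0.28 in size. All 4 pairs went in 1 direction for 44.8% of all genes tested. The difference was -0.28 (SE 0.32, 95% interval -1.001 to 0.43), with a limma adjusted p of 0.638 and of 0.0314 with the replicate block (95% interval -0.47 to -0.09). The blocked call was lost without both libraries numbered 3 (-0.24, adjusted p 0.184). ALB took 73.7% to 80.4% of the summed estimated FPKM of the 8 genes in vehicle libraries and 69.7% to 74.8% in EZHi libraries.

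TTR, which carries thyroid hormone and retinol-binding protein, had log2 values of 11.91, 11.56, 12.86 and 12.12 in vehicle and 12.48, 12.37, 12.59 and 12.57 in EZHi. Vehicle replicate 3 was above all other libraries, and the EZHi libraries differed little (SD 0.10, against 0.55 in vehicle). The difference was 0.39 (SE 0.23, 95% interval -0.12 to 0.89), with 3 of 4 pairs higher, and the limma adjusted p was 0.321, or 0.0725 with the block. This result turned on 1 library. Without vehicle replicate 3 the difference was 0.64 (adjusted p 0.0111), and without both libraries numbered 3 it was 0.61 (adjusted p 0.0255).

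ORM1 (ENSG00000229314, chr9:114323098-114326479, plus strand), which encodes a carrier of basic drugs and steroids, had log2 values of 12.96, 12.74, 12.61 and 12.83 in vehicle and 12.73, 12.31, 12.54 and 12.60 in EZHi. The groups overlapped at vehicle replicate 3, and the EZHi library was lower in 4 of 4 pairs. The difference was -0.24 (SE 0.10), with a limma adjusted p of 0.176 and of 0.0157 with the replicate block. Of its stretches of 150 bases, 22.1% occur also in the paralog ORM2, and a single read from such a stretch does not tell these genes apart. ORM2 had a difference of -0.20 (adjusted p 0.189, and 0.0296 with the block), in the same direction in 4 of 4 pairs, as for 44.8% of all genes tested.

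LBP (ENSG00000129988, chr20:38346482-38377013, plus strand), whose product presents bacterial lipopolysaccharide to CD14, had log2 values of 2.48, 2.45, 2.09 and 2.35 in vehicle and 2.50, 3.35, 3.09 and 3.03 in EZHi. The groups did not overlap, with EZHi higher as for 10.7% of all genes tested. EZHi replicate 1 was only 0.021 above its vehicle partner, the highest vehicle library. The means were 2.34 ± 0.18 and 2.99 ± 0.35 (SD, n = 4), a difference of 0.65 (SE 0.17) or 1.57-fold (95% interval 1.21 to 2.04), with a limma adjusted p of 0.0317. The call was kept in 1 of 8 fits that left out 1 library, the one without EZHi replicate 1 (adjusted p 0.00427), and the adjusted p was 0.0530 to 0.0849 without any other. It was also lost after quantile normalization (0.48, adjusted p 0.101) and without both libraries numbered 3 (0.53, adjusted p 0.127). At a mean estimated FPKM of 0.199 in vehicle and 0.317 in EZHi, LBP is a gene of few reads. The regularized log used for these values shrinks differences of such genes and also the spread between their libraries.

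**Figure D2:**
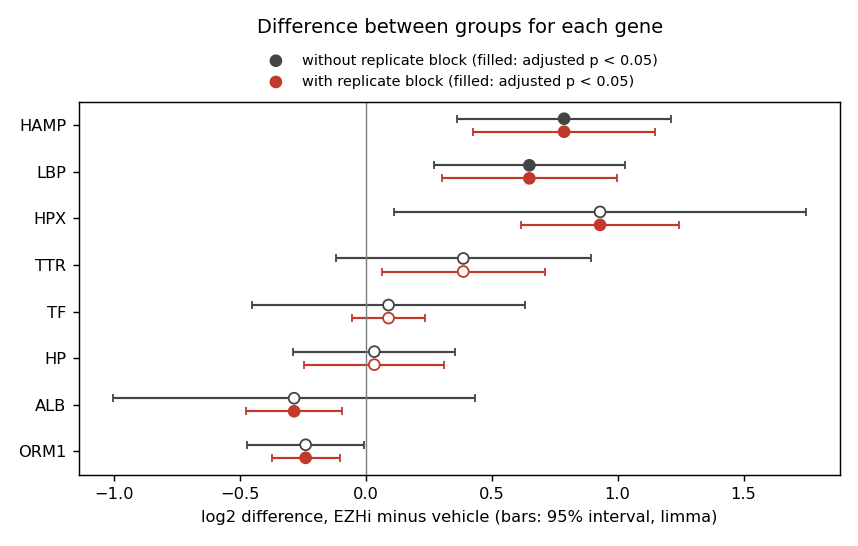
Log2 difference, EZHi minus vehicle, of the 8 genes (horizontal axis) with 95% intervals from limma, without the replicate block (grey) and with it (red). Filled points have an adjusted p under 0.05: HAMP and LBP in both fits, and HPX, ALB and ORM1 with the block.

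The calls for the abundant genes also depended on how the libraries were scaled. The 7809 genes at 10 FPKM and over had a median log2 difference of -0.09, with 213 called higher and 715 lower. When the libraries were centred on those genes and the replicate block was kept, 5 of the 8 genes were called higher and none lower, beside 22.6% and 6.79% of all genes tested. TTR (0.48, limma adjusted p 0.0212) and TF (0.19, adjusted p 0.0334) joined HAMP, HPX and LBP, and ALB (-0.19, adjusted p 0.0768) and ORM1 (-0.14, adjusted p 0.103) were no longer called. The direction of each of the 8 genes was the same under both references.

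The 8 genes did not vary together across libraries. Vehicle replicate 3 was the highest or lowest of its group for 8 of 8 genes, the highest for ALB, TTR and TF and the lowest for HP, HPX, ORM1, HAMP and LBP. EZHi replicate 2 was at an end of its group for 8 of 8 genes as well, the highest for HPX and LBP and the lowest for the others. By the root mean square distance between the centred log2 values of 8 libraries, ALB was nearest to TF among the members (0.22) and farthest from HPX (1.16). Among all genes tested the nearest to ALB were PTPRH (0.068), ENSG00000241886 (0.091) and F7 (0.12), where the median gene was at 0.52. The genes nearest to HPX were ZNF385A (0.20), SFRP5 (0.23) and NCS1 (0.25), with the median gene at 0.74. HAMP was nearest to LBP (0.31), and HP to ORM1 (0.23).

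Hepatocyte markers were abundant in every library. All 7 hepatocyte markers were in the table, with a summed estimated FPKM of 22026 to 35173 in vehicle and 24497 to 33569 in EZHi libraries. AFP held the largest part of that sum, with means of 16089 in vehicle and 16309 in EZHi. FGB was the only hepatocyte marker called (108 and 203, limma adjusted p 0.00167). Of 5 leukocyte and macrophage markers, 1 was in the table, CSF1R, at 0.158 to 0.180 in vehicle and 0.166 to 0.312 in EZHi. All 4 cholangiocyte markers were in the table, summing to 633 to 1051 and 799 to 1149, with KRT7 low at means of 0.747 and 0.754. Of 4 endothelial markers 3 were in the table, and their sum was 2.26 to 2.72 in vehicle and 3.42 to 7.21 in EZHi, moving with VWF (limma adjusted p 0.00537) and CDH5 (0.00411). The 3 of 5 stromal markers in the table summed to 32.8 to 42.1 and 41.8 to 46.8. The part of these markers in the results above was not tested.

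Among other acute-phase genes, 2 of the 18 tested were called higher and 1 lower, beside 8.85% and 4.27% of all genes tested. The other 15 were not called, and the median log2 difference of the 18 was -0.05. The genes called higher both encode chains of fibrinogen, the clotting protein. FGB had log2 values of 11.28, 11.14, 11.57 and 11.70 in vehicle and 12.20, 12.22, 12.33 and 12.60 in EZHi. Its groups did not overlap, with EZHi higher as for 10.7% of all genes tested, and it rose by 0.92 (SE 0.14, limma adjusted p 0.00167). FGG rose by 0.50 (adjusted p 0.0342), a call that was lost without vehicle replicate 1, 2 or 4 or EZHi replicate 2, 3 or 4 (adjusted p up to 0.102). FGA, the remaining chain, named after its value was seen, had a difference of 0.50 (adjusted p 0.114, and 0.000413 with the block). The 3 genes are neighbours on chromosome 4. LRG1, a secreted glycoprotein used as an inflammation marker, fell by 0.35 on the log2 scale (adjusted p 0.00785). SAA4, the constitutive serum amyloid A, had a difference of 0.03 (adjusted p 0.901). With the block, 5 of the 18 were called higher and 4 lower, beside 14.9% and 15.1% of all genes tested.

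Among other plasma carriers, 1 of the 13 tested was called higher and none lower, beside 8.85% and 4.27% of all genes tested. The other 12 were not called, and the median log2 difference of the 13 was 0.06. GC, the vitamin D-binding protein, rose by 0.74 (SE 0.07, limma adjusted p 0.00011). Its mean estimated FPKM was 0.0892 in vehicle and 0.150 in EZHi, so it passed the minimum of 0.1 through the EZHi group. With the replicate block 5 carriers were called higher and 0 lower, beside 14.9% and 15.1% of all genes tested. Besides GC these were A2M (0.51, adjusted p 0.00197), SHBG (0.55, adjusted p 0.00278), AMBP (0.35, adjusted p 0.00458) and SERPINA7 (0.18, adjusted p 0.0116). Those named besides GC were named after their values were seen. AFP, the fetal counterpart of albumin, had a log2 difference of 0.03 (adjusted p 0.939), also named after its value was seen.

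**Figure D3:**
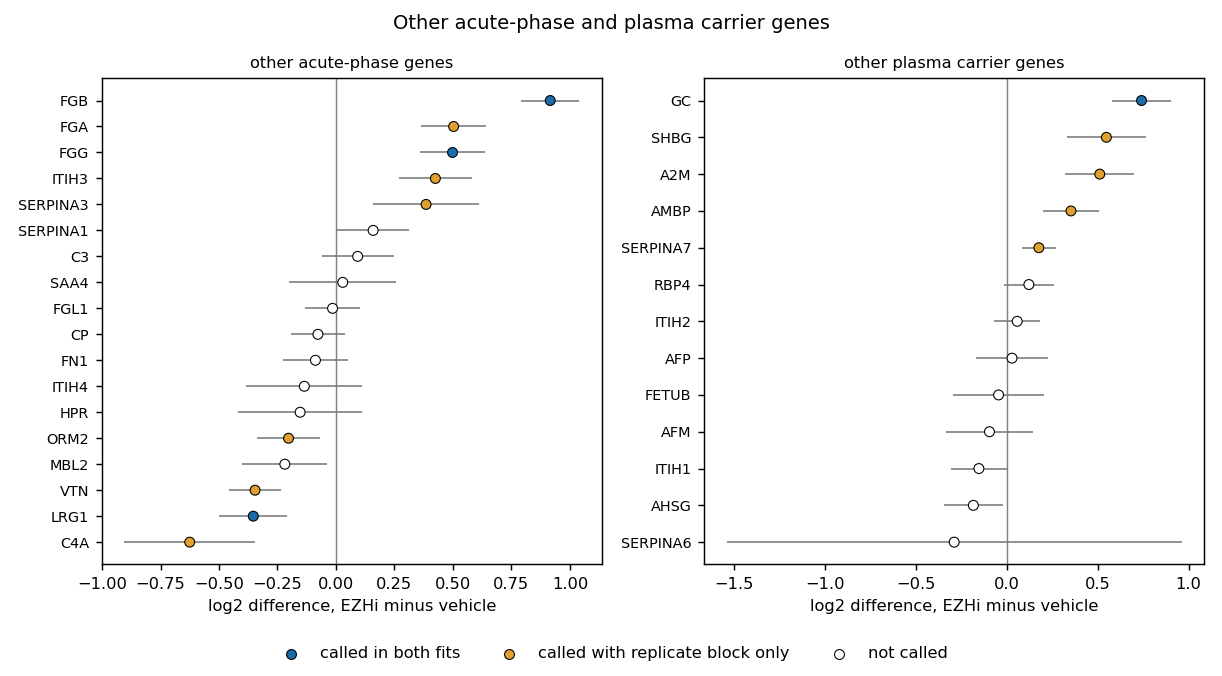
Log2 difference, EZHi minus vehicle, of 18 other acute-phase genes (left) and 13 other plasma carrier genes (right), with 95% intervals from limma with the replicate block. Blue genes were called in both fits and orange genes with the block only. The 3 fibrinogen genes lead the left panel, and GC, which passed the minimum level through the EZHi group, leads the right one.

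In the pathway that sets hepcidin and handles iron, 2 of the 24 genes tested were called higher and none lower. The shares of all genes tested were 8.85% and 4.27%, and the median log2 difference of the 24 was 0.12. NEO1 (neogenin), a receptor that binds the BMP co-receptor hemojuvelin, had log2 values of 6.87, 6.95, 6.86 and 6.86 in vehicle and 8.15, 8.21, 8.23 and 8.18 in EZHi. It rose by 1.31 (SE 0.07) or 2.47-fold (limma adjusted p 5.09e-06), with no overlap, as for 10.7% of all genes tested in that direction. BMP6, the ligand that links iron stores to hepcidin, rose by 0.78 (SE 0.15, adjusted p 0.0081) from a mean estimated FPKM of 0.285 to 0.495.

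With the block, 10 of the 24 hepcidin and iron genes were called higher and 3 lower, beside 14.9% and 15.1% of all genes tested. Without both libraries numbered 3 and without the block, 5 were called higher and none lower, beside 7.92% and 3.32%. The examples that follow were named after their values were seen. Each moved in 1 direction in 4 of 4 pairs, as did 44.8% of all genes tested. TFR2, a sensor of iron-loaded transferrin that acts upstream of hepcidin, had a difference of 0.74 (blocked adjusted p 7.48e-05, and 0.124 without the block). TMPRSS6, a protease that dampens hepcidin induction, had a difference of 0.69 (0.000486, and 0.0544 without). ATOH8, a transcription factor that raises hepcidin, had a difference of 0.83 (0.00137, and 0.120 without) at a mean estimated FPKM under 1. ID1 and SMAD6, both targets of BMP signalling, differed in direction, with -0.29 (0.00703, and 0.211 without) and 0.21 (0.0494, and 0.323 without). SLC40A1, which encodes ferroportin, the target of hepcidin, had a difference of -0.46 (0.000159, and 0.215 without).

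In the IL6 and IL1 pathways, 1 of the 26 genes tested was called higher and 4 were called lower. The shares of all genes tested were 8.85% and 4.27%, and the median log2 difference of the 26 was -0.12. CEBPD, the C/EBP factor that inflammation induces, fell by 0.76 on the log2 scale (SE 0.18, limma adjusted p 0.0206). That call was lost without vehicle replicate 2 or EZHi replicate 1 or 4 (adjusted p up to 0.0654). OSMR, a receptor chain for oncostatin M, fell by 0.47 on that scale (adjusted p 0.00762). Its call was kept in every fit that left out 1 library (adjusted p up to 0.0240). The NF-kappaB subunit RELA had a difference of -0.25 (adjusted p 0.0407) and its inhibitor NFKBIA one of -0.27 (adjusted p 0.0406). RELA lost its call without any 1 of the 8 libraries (adjusted p 0.0513 to 0.106), and NFKBIA kept it only without vehicle replicate 3 (0.0313, otherwise up to 0.105). Both also lost it when the libraries were centred on genes at 10 FPKM and over (-0.15 and -0.17). IL1R1, the signalling receptor for IL1, had a difference of 0.50 (adjusted p 0.0427), and its call was lost without vehicle replicate 1, 2 or 3 or EZHi replicate 2, 3 or 4 (adjusted p up to 0.110).

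With the block, 3 of the 26 inflammatory genes were called higher and 12 lower, beside 14.9% and 15.1% of all genes tested. Centring on genes at 10 FPKM and over changed these counts to 5 and 8, beside 22.6% and 6.79%. STAT3, which IL6 activates, had a difference of 0.18 (blocked adjusted p 0.0129, and 0.265 without the block), and SOCS3, its feedback target, had one of -0.04 (0.824, and 0.948 without). These genes were named after their values were seen.

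**Figure D4:**
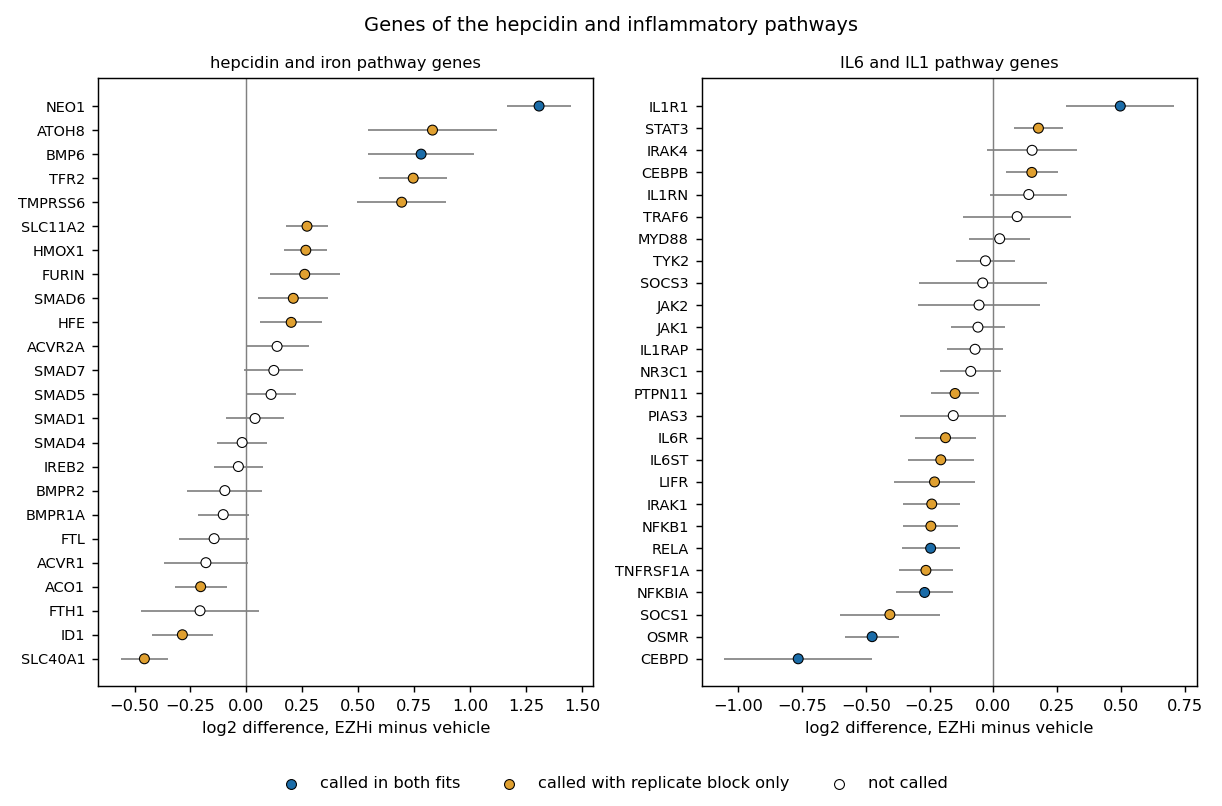
Log2 difference, EZHi minus vehicle, of 24 hepcidin and iron pathway genes (left) and 26 genes of the IL6 and IL1 pathways (right), with 95% intervals from limma with the replicate block. Blue genes were called in both fits and orange genes with the block only. NEO1 stands highest on the left, and CEBPD lowest on the right.

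Of 11 receptor genes tested for these carriers, 2 were called higher and none lower, beside 8.85% and 4.27% of all genes tested. The median log2 difference of the 11 was 0.03. STRA6, the receptor that takes up retinol from its plasma carrier, had log2 values of 5.46, 6.04, 4.58 and 5.64 in vehicle and 7.06, 7.89, 7.11 and 7.19 in EZHi. It rose by 1.88 (SE 0.30) or 3.69-fold (limma adjusted p 0.00249), with no overlap, as for 10.7% of all genes tested in that direction. LRP2 (megalin), which takes up several carrier proteins, rose by 0.97 (adjusted p 0.000383) from an estimated FPKM of 0.105 to 0.204. The transferrin receptor TFRC, named after its value was seen, had a difference of -0.06 (adjusted p 0.748). With the block 4 of the 11 receptor genes were called higher and 3 lower, beside 14.9% and 15.1% of all genes tested. These counts include TFR2 (higher) and SLC40A1 (lower), which were also counted among the hepcidin and iron genes. Without both libraries numbered 3 and without the block the counts were 3 and 1, beside 7.92% and 3.32%.

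Of 16 liver transcription factor genes, 1 was called higher and 2 lower, beside 8.85% and 4.27% of all genes tested. The median log2 difference of the 16 was 0.06. NR1H4, the bile acid receptor FXR, rose by 1.06 (SE 0.18) or 2.08-fold (limma adjusted p 0.00411). FOXA1 fell by 0.25 on the log2 scale (adjusted p 0.0125), a call that was lost when the libraries were centred on genes at 10 FPKM and over (-0.15), and CEBPD was the other gene called lower. HNF4A, which drives many hepatocyte genes, was named after its value was seen and was not called (0.04, adjusted p 0.850). With the block 6 of the 16 factors were called higher and 2 lower, beside 14.9% and 15.1% of all genes tested.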

How the data were processed

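RNA of HepG2 cells was sequenced as paired reads of 150 bases in 4 vehicle and 4 EZHi libraries, which the study describes as independent biological replicates. The submitters' processing notes name HISAT2 2.2.1, HTSeq 0.9.1 and DESeq2 1.40.2, and the genome build hg38. The values deposited by the authors are on a log2 scale, a regularized log corrected for gene length, and keep neither counts nor depth, so no count model was run. 1 repeated gene was dropped, and 25594 of 25603 genes were found in GENCODE 44. The linear values of the genes found in GENCODE, each multiplied by gene length in kilobases, sum to 24.4 to 27.3 (in units of 10 to the sixth power) a library. Each linear value was divided by the mean of these sums, 25.6, to give an estimated FPKM. Because the regularized log shrinks genes of few reads, their differences are understated and the spread between their libraries is too. The effect of this on their p-values was not tested. Lengths are means over annotated transcripts, so levels between genes are approximate.

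The test was limma 3.58.1 in R 4.3.3 (trended prior, groups only, two-sided), on the 20153 genes whose estimated FPKM averaged 0.1 or more, with Benjamini-Hochberg adjustment over all of them, and "called" means an adjusted p under 0.05. The script was tested on simulated data. Exact permutation tests used the 70 assignments of the 8 libraries. Same-numbered libraries correlated in their deviations from group means (0.310, 0.558, 0.634 and 0.216 over 20153 genes), so the numbers were taken to pair them, from the data and not from a stated shared culture. Alternatives were the replicate block, other filters, pseudocounts and scalings, and leaving out each library. Named in the text are all members, their paralogs and up to 6 called genes of each list with the largest differences. Members and lists were chosen with earlier results of these data known.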

Additional observations from a re-analysis of the deposited data

Results flagged for a closer look

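No value of the 8 acute-phase and carrier genes stood apart within its group by Dixon's criterion, which compares the gap to the nearest library with the range of the group. Among these and the other genes named by rule, 3 of 52 groups of 4 libraries passed it, where chance gives about 2.6. GC in vehicle replicate 1 had a log2 value of 1.26 where the other vehicle libraries were at 1.16 to 1.17. NEO1 in vehicle replicate 2 was at 6.95 beside 6.86 to 6.87. STRA6 in EZHi replicate 2 was at 7.89 beside 7.06 to 7.19. The library was further from the other group than its neighbours for STRA6 and nearer to it for GC and NEO1, and all 3 genes were called in each of 8 fits that left out 1 library.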

How the results depend on the processing

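The number of members called, 2, was 5 with the replicate block, with or without centring on genes at 10 FPKM and over, 1 with a minimum of 1 FPKM or quantile normalization, and 4 with the block without both libraries numbered 3. Without 1 library it was 0 to 2. Of other acute-phase and carrier genes 4 were called, and 14 with the block, 17 with block and centring, 13 with the block without both libraries numbered 3, and 3 to 6 without 1 library. Of pathway, receptor and transcription factor genes 11 were called, and 39, 40, 26 and 7 to 13 under the same settings. The block raised ALB (-0.28), HPX (0.93) and ORM1 (-0.24) past the threshold and changed no other member's call. With centring added these were TTR (0.48), TF (0.19) and HPX (1.03). Without both libraries numbered 3, a choice made after seeing the data, TTR was 0.61 with and without the block (called), LBP 0.53 (call lost) and HP -0.15 (turned). With the block on those 6 libraries HPX (0.73) and ORM1 (-0.29) were called, and ALB (-0.24) was not. Quantile normalization took LBP to 0.48 (call lost) and SAA4 to -0.12 (turned).

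Without 1 library the log2 difference ranged from -0.53 to -0.04 for ALB, 0.20 to 0.64 for TTR, -0.092 to 0.27 for TF, -0.064 to 0.14 for HP, 0.56 to 1.14 for HPX, -0.30 to -0.16 for ORM1, 0.58 to 0.91 for HAMP and 0.53 to 0.81 for LBP. For SAA4 it was -0.021 to 0.12 and for HPR -0.29 to 0.0061. Under the remaining settings 70 of 71 member values kept direction and call. So did 175 of 187 values of the genes named by rule and of FGA, TMPRSS6, TFR2, ATOH8, SLC40A1 and VTN. Other genes named after their values were seen are not in these counts. The cause of each change was not tested. Depth is unknown, which leaves the counting error of LBP, GC, LRP2, BMP6, SAA4 and ATOH8, all under 1 FPKM, unmeasured.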
